A study of Mus musculus with 6 samples.

Results

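Schwann cell and myelin genes were examined in RNA from the Achilles tendon of mice at 4 weeks of age. The group holds 37 listed genes among the 53726 features of the RNA-seq count table, and 36 of them had at least 1 read. They were listed because high counts of myelin genes had been seen in the Dicer cKO library, so their Dicer cKO values are descriptions and were not tested. The 37 genes fall into 7 roles. Those of myelin are compact myelin proteins (6 genes), glial adhesion, junction and non-compact myelin proteins (8), and myelin lipid enzymes (2). The others are transcription factors (4), signalling proteins (4), markers of the Schwann lineage or of non-myelinating Schwann cells (7), and axon contact and axon proteins (6). Ncmap was placed in the compact myelin role, although its name stands for non-compact myelin associated protein.

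Total RNA came from 1 Control mouse, 1 ScxHt mouse and 1 Dicer cKO mouse, with 1 RNA-seq and 1 small RNA-seq library per genotype and 6 libraries in all. The Control carried the floxed Dicer alleles without Cre (Dicer f/f). ScxHt carried Cre knocked into 1 copy of Scx and intact Dicer (ScxCre/+ KI:Dicer +/+), and Dicer cKO carried the same Cre allele with both Dicer alleles floxed (ScxCre/+ KI:Dicer f/f). Both Cre genotypes therefore had 1 working copy of Scx, a tendon transcription factor whose gene drives Cre mainly in tendon and ligament cells, and in Dicer cKO the tissue kept the Dicer of every cell that Cre did not reach. With 1 mouse per genotype no difference has a replicate check. A ratio is that of the counts of 2 libraries after DESeq2 size factors, and the 95% interval beside it is an exact Clopper-Pearson interval that covers counting error only.

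Schwann cells are the glia of peripheral nerve. A myelinating Schwann cell wraps 1 axon in compact layers of membrane made of lipid and a few abundant proteins, and Sox10, Pou3f1 and Egr2 act in sequence to switch on the genes for them. Axonal neuregulin, sensed through the ErbB2 and ErbB3 receptors, sets how much myelin is made, and non-myelinating Schwann cells hold small axons without wrapping them in myelin. A tendon receives a sparse supply of sensory and autonomic axons, whereas the adjoining muscle also receives myelinated motor axons.

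RNA-seq counts added up to between 14959399 and 16244232 per library, and the 37 genes took 0.0435% of the Control counts, 0.0525% of the ScxHt counts and 0.0769% of the Dicer cKO counts. Of the 36 genes with reads, 29 had their highest normalized count in Dicer cKO, 6 in ScxHt and 1 in the Control. No such count was made over all genes, and the group was listed for high Dicer cKO counts, so these numbers only describe it. Dicer1, the targeted gene, had 1919 Control, 2025 ScxHt and 1621 Dicer cKO counts, a Dicer cKO/Control ratio of 0.877 (95% interval 0.821 to 0.938). Scx had 1055, 686 and 371 counts. The tissue was tendon by its markers, since Tnmd, Mkx, Col1a1 and Fmod were read in every library, but it also held skeletal muscle RNA, described with the other cell types further on.

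**Figure D1:**
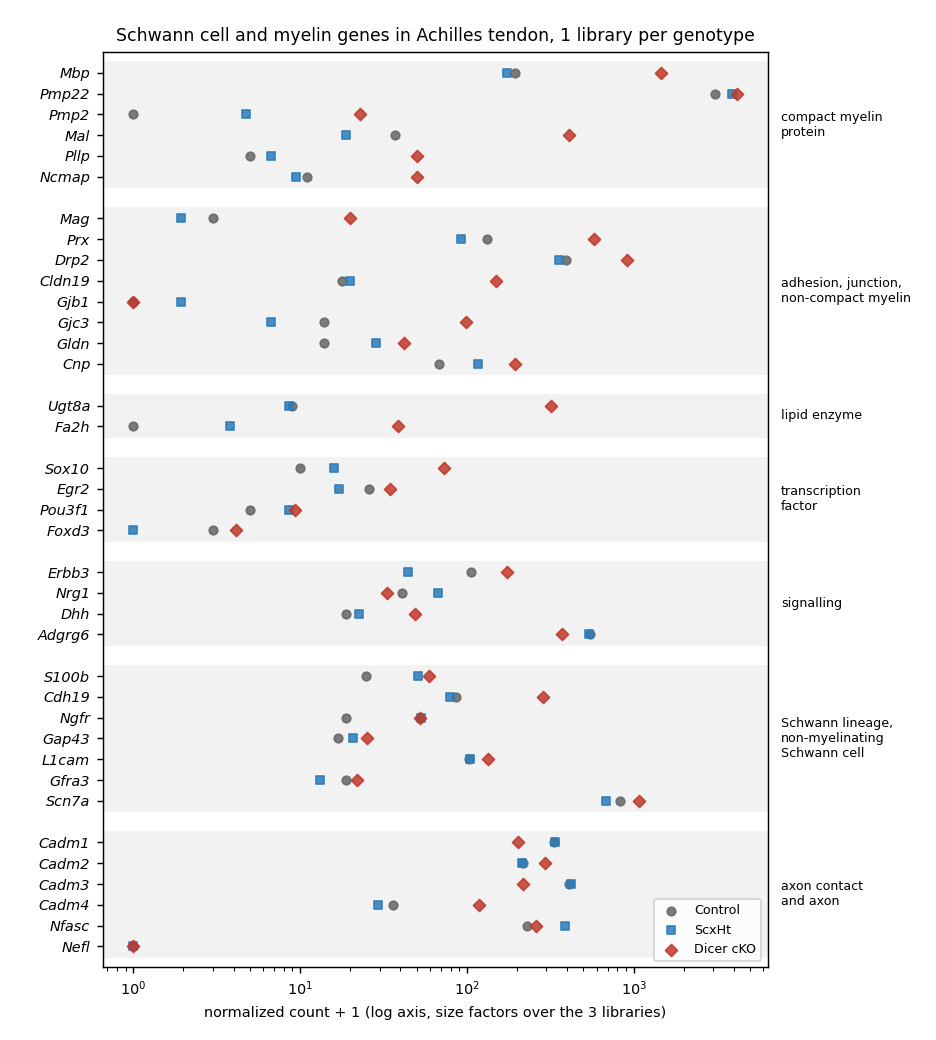
Normalized counts of the 37 genes (horizontal log axis, normalized count + 1, with size factors over the 3 libraries) in the Control, ScxHt and Dicer cKO library, grouped by role. Dicer cKO lies to the right of both other libraries for most compact myelin, adhesion and lipid enzyme genes, and to the left for Nrg1, Adgrg6, Cadm1 and Cadm3.

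In Dicer cKO against the Control, 10 of the 37 genes had a ratio above 1.67 and 2 a ratio below 0.60, the thresholds of the study, 7 lay between them and 18 were at or under the minimum mean normalized count (baseMean) of 50. Of all 13404 genes above that minimum, 3.87% were higher and 4.19% lower by the same thresholds, and their median ratio was 0.977. The 10 higher genes were Mbp, Mal, Prx, Drp2, Cldn19, Gjc3, Cnp, Ugt8a, Cdh19 and Cadm4. In bulk tissue, more Schwann cells and more of these RNAs per Schwann cell cannot be told apart. In a ranking of all genes above the minimum by this ratio, 5 of the first 10 were from the group (Ugt8a, Mal, Cldn19, Gjc3 and Mbp), and 9 of the first 50. The ranking used the Dicer cKO counts for which the genes were listed, so it describes them and tests nothing. Some genes passed the minimum only through their Dicer cKO count, among them Ugt8a, Mal, Cldn19 and Gjc3 (8, 36, 17 and 13 Control counts). Genes below the minimum were therefore examined as well. With all 37 genes, the counting interval lay above 1 for 24, below 1 for 3 and held 1 for 8, and Gjb1 and Nefl had no reads in either library. Among the 19 of the group above the minimum, it lay above 1 for 14, below 1 for 3 and held 1 for 2. The shares among all genes above the minimum were 21.6% above 1 and 28.5% below 1.

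In ScxHt against the Control, the genes of the group did not share a direction. Of the 15 genes above the minimum, 3 were higher (Cnp, Nrg1 and Nfasc), 1 was lower (Erbb3) and 11 lay between the thresholds, against 3.03% higher and 4.71% lower among all 13462 genes tested. With all 37 genes, the interval lay above 1 for 7, below 1 for 4 and held 1 for 25. Among the 15 above the minimum, it lay above 1 for 4, below 1 for 3 and held 1 for 8. The shares among all genes tested were 26.4% above and 23.8% below 1. In Dicer cKO against ScxHt, 10 genes were higher and 2 lower of the 21 above the minimum, where 7.68% of all 13455 genes were higher and 5.68% lower. The 3 comparisons share libraries and are not independent of each other.

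**Figure D2:**
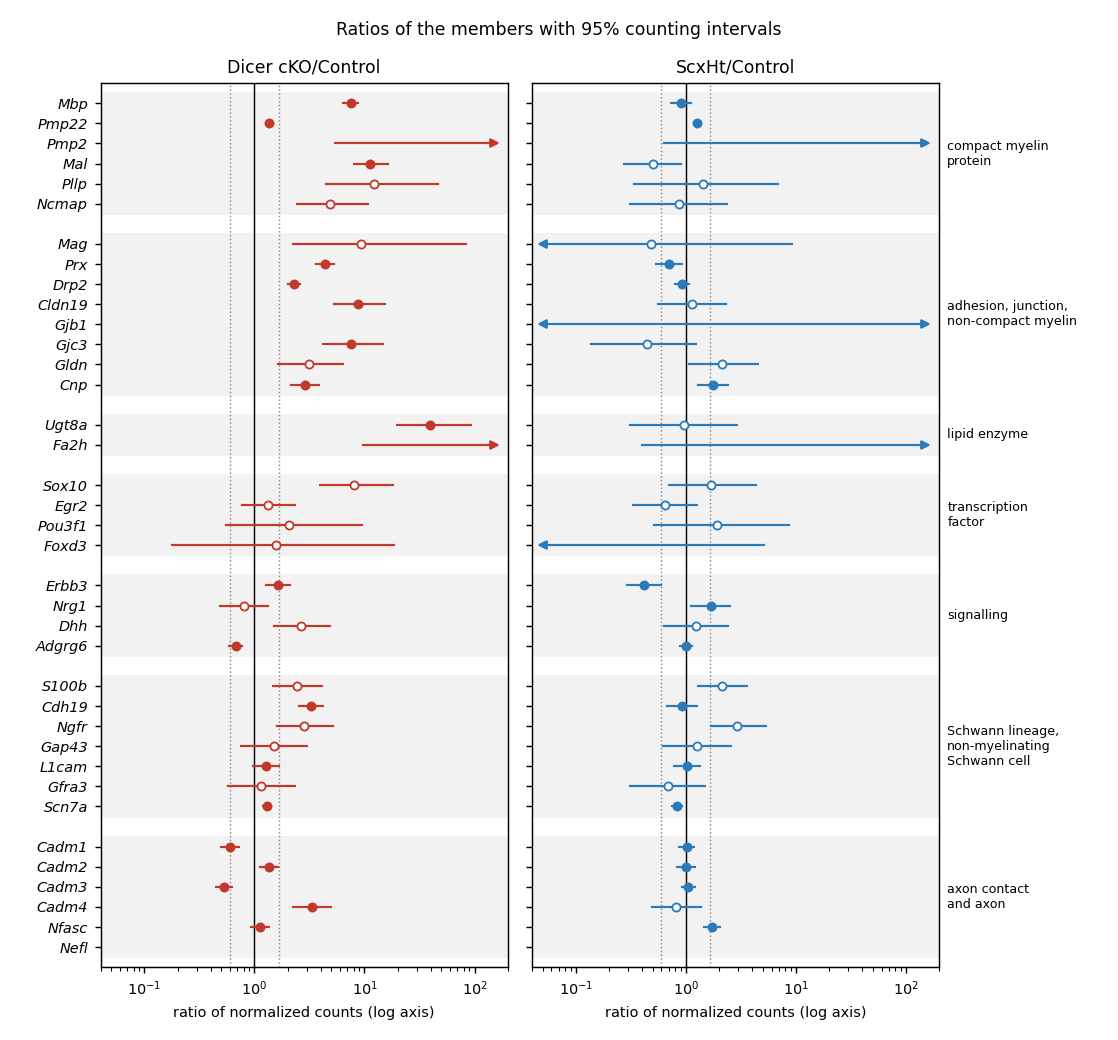
Dicer cKO/Control (left) and ScxHt/Control (right) ratios of normalized counts on a log axis, with 95% counting intervals as lines; filled points are genes above the minimum baseMean, open points genes below it, arrows mark bounds outside the axis, and dotted lines mark 0.60 and 1.67. The lines of 24 genes lie wholly above 1 on the left and those of 7 genes on the right.

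Among the compact myelin proteins, 2 of the 3 genes above the minimum were higher in Dicer cKO than in the Control. Mbp, myelin basic protein, which seals the cytoplasmic faces of the membrane together, had 195 counts in the Control, 183 in ScxHt and 1403 in Dicer cKO. The Dicer cKO count stood apart from the other 2, which differed by less than their counting error (ScxHt/Control ratio 0.899, 0.731 to 1.10). The Dicer cKO/Control ratio was 7.47 (6.43 to 8.72) and the Dicer cKO/ScxHt ratio 8.45 (7.24 to 9.91). Mal, a raft protein that takes part in the sorting of myelin components, had 36, 19 and 390 counts. Its ratio was 11.2 (7.98 to 16.3) to the Control and 22.6 (14.3 to 38.0) to ScxHt, and the ScxHt count was lower than the Control count (0.506, 0.274 to 0.905), although below the minimum. Both genes thus had a Dicer cKO count far outside the range of the other libraries.

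The scarce genes of the compact myelin role stood at 10 counts or fewer in the Control and ScxHt and at 21 to 47 in Dicer cKO. Pllp, plasmolipin, had 4, 6 and 47 counts, and Ncmap, the non-compact myelin associated protein of peripheral nerve, had 10, 9 and 47. Pmp2, a fatty acid binding protein of peripheral myelin, had 0, 4 and 21 counts, which makes it at least 7.27-fold higher in Dicer cKO against a floor of 3 counts in the Control. Dicer cKO was the highest library for each of them. Pmp22, a tetraspan protein of compact myelin that many other cells also make, had 3096, 4103 and 4001 counts. Here ScxHt and Dicer cKO were close to each other (ratio 1.07, 1.03 to 1.12), and Dicer cKO/Control was 1.34 (1.28 to 1.41). Without Pmp22 the group summed to 3953 counts in the Control, 4157 in ScxHt and 7482 in Dicer cKO.

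On the scale of the deposited RPKM values, which are per length, Pmp22 had the highest level of the group in every library (81.0 in the Control, 111 in ScxHt and 114 in Dicer cKO). In the Control the next levels were those of Scn7a (6.93), Cadm3 (3.47), Adgrg6 (2.86) and Drp2 (2.84). In Dicer cKO they were those of Mbp (11.2), Scn7a (9.43), Mal (9.39), Drp2 (6.81) and Prx (6.59), while Mbp had an RPKM of 1.43 and Mal one of 0.798 in the Control. The order of the myelin genes by RPKM thus differed between the libraries, with Mbp and Mal next to Pmp22 and Scn7a in Dicer cKO alone. No error can be given for these levels.

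Among the adhesion and non-compact myelin genes, 5 of 8 were higher in Dicer cKO than in the Control. Prx, periaxin, and Drp2, dystrophin-related protein 2, join the outer myelin membrane to the basal lamina through dystroglycan. Prx had 131 counts in the Control, 97 in ScxHt and 550 in Dicer cKO, and Drp2 had 394, 377 and 871. The Dicer cKO/Control ratio was 4.36 (3.60 to 5.32) for Prx and 2.30 (2.04 to 2.59) for Drp2, so these partners did not move by the same factor. Dag1, the gene of dystroglycan, had 3111, 3255 and 3375 counts and a ratio of 1.13, but it is made by muscle and many other cells. Cldn19, the claudin of the tight junctions within the myelin sheath, had 17, 20 and 142 counts (ratio 8.67, 5.23 to 15.3). Gjc3, a connexin of myelinating glia, had 13, 6 and 94 counts (7.51, 4.19 to 14.6). For both genes the Control and ScxHt counts were within counting error of each other.

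Mag, the adhesion molecule of the membrane that faces the axon, had 2 counts in the Control, 1 in ScxHt and 18 in Dicer cKO, and its Dicer cKO/Control ratio of 9.35 had an interval from 2.24 to 83.1. Gldn, gliomedin, which gathers sodium channels at nodes, had 13, 29 and 39 counts, and its ScxHt count already lay above the Control count (ratio 2.14, 1.08 to 4.48). Cnp, an enzyme of non-compact myelin cytoplasm that is also read in other cells, had 67, 123 and 186 counts. It was higher than the Control in both Cre libraries, by 2.88 (2.17 to 3.87) in Dicer cKO and 1.76 (1.29 to 2.41) in ScxHt, and so differs in pattern from Mbp. Its exons overlap those of Dnajc7 on the other strand, and Dnajc7 had 781, 783 and 780 counts. Gjb1, the connexin mutated in X-linked neuropathy, had 1 count in all, in ScxHt, so that this connexin was not detectable at this depth where Gjc3 was.

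The myelin lipid enzymes had the widest gap. Ugt8a makes galactosylceramide, the main glycolipid of myelin, and had 8 counts in the Control, 8 in ScxHt and 305 in Dicer cKO. The ratio was 39.6 (19.8 to 92.5) to the Control and 42.0 (21.1 to 98.2) to ScxHt, and 0.958 (0.313 to 2.93) for ScxHt/Control. It had the highest Dicer cKO/Control ratio of all genes above the minimum, which it passed only through its Dicer cKO count. Fa2h, which adds the hydroxyl group to the fatty acids of these lipids, had 0, 3 and 36 counts and was at least 12.5-fold higher than the floor of 3 counts in the Control. Of 7 further genes of myelin lipid synthesis, 6 were above the minimum and 3 were higher in Dicer cKO. These were Fasn, fatty acid synthase (10502, 12808 and 18931 counts, ratio 1.87), Elovl6, a fatty acid elongase (1.82), and Aspa, which frees acetate from N-acetylaspartate (1.89). All 3 are also made by other tissues. Cers2, the ceramide synthase of very long chains, had a ratio of 0.791, and Gal3st1, which turns galactosylceramide into sulfatide, had only 2, 5 and 3 counts. Of 15 cholesterol synthesis genes, 14 were above the minimum, none was higher and 1 was lower (Hsd17b7), with a median log2 ratio of -0.16.

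The transcription factors all stood below the minimum baseMean. Sox10, which all Schwann cells express, had 9 counts in the Control, 16 in ScxHt and 69 in Dicer cKO. Dicer cKO was again the high library, with a ratio of 7.96 (3.96 to 18.1) to the Control and 4.75 (2.73 to 8.77) to ScxHt. Egr2 (Krox20), the factor that drives myelination in these cells, had 25, 17 and 32 counts, and Dicer cKO/Control was 1.33 (0.763 to 2.34). Egr2 is also induced in many cell types as an early response gene. Pou3f1 (Oct6), which acts before Egr2, had 4, 8 and 8 counts, and Foxd3, a factor of neural crest and early glia, had 2, 0 and 3. For Egr2, Pou3f1 and Foxd3 a difference from the Control was not detectable at this depth. In Dicer cKO/ScxHt the Egr2 ratio was 2.07 (1.12 to 3.98), and the intervals of Pou3f1 and Foxd3 held 1. Of 19 further regulators of Schwann cells, 15 were above the minimum. None was higher and 2 were lower in Dicer cKO, namely Jun (2190, 926 and 888 counts, ratio 0.421), the factor of the repair state and an early response gene elsewhere, and Id2 (0.582), with a list median of -0.12 on the log2 scale. The most read of them, Zeb2 and Tead1, had ratios of 1.01 and 1.17.

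Promoter sequence was examined for letters that the families of these factors bind. RefSeq promoters on GRCm38.p6, 250 bases before to 50 bases after a transcript start, matched 24 of the 37 genes by symbol, with 40 promoters. The searched letters, on both strands, were ACAAAG or ACAATG for SOX factors, GTGGGCG for EGR factors and ATGCAAA for POU factors. None of these strings contains another. SOX letters were in 6 of the 40 promoters (15%) and in 28.6% of all 32851 promoters of that length. EGR letters were in 6 (15%, against 7.97%) and POU letters in 5 (12.5%, against 4.63%). Promoters of 1 gene can overlap, and the same Cldn19 EGR, Egr2 POU and Mag SOX site was each counted from more than 1 start. By gene, SOX letters were in 4, EGR letters in 5 and POU letters in 3 of the 24. No share by gene was computed for all promoters, so no excess can be read from these shares. EGR letters occurred in promoters of Cldn19, Gjb1, Egr2, Scn7a and Cadm4, POU letters in those of Prx, Egr2 and Scn7a, and SOX letters in those of Mag, Gjb1, Cnp and Cadm4. The 30 bases around a match are shown for 4 genes that were higher in Dicer cKO, on the strand of the gene and with the matched letters in capitals. They lie at chr4:119255344-119255373 (Cldn19, EGR), chr7:24481962-24481991 (Cadm4, EGR), chr7:27499080-27499109 (Prx, POU) and chr11:100574760-100574789 (Cnp, SOX), all on the plus strand.
Cldn19: ggggactgtctGTGGGCGggttttggcctt
Cadm4: caaggcgcgcaGTGGGCGgagcagagggcg
Prx: atgggggtggtATGCAAAttcttgaactaa
Cnp: aacttttaaggaACAAAGaggtggcgtggc
These letters are short and common, and a match is a description of the sequence and no evidence of binding. Cadm4 held EGR letters at 2 places, 68 and 50 bases before the start, whereas Prx held the POU letters 233 bases before it.

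The signalling genes differed in which library was high. Erbb3, the neuregulin receptor of Schwann cells, had 105 counts in the Control, 46 in ScxHt and 165 in Dicer cKO. ScxHt was the low library (0.420, 0.290 to 0.599), Dicer cKO/Control was 1.63 (1.27 to 2.10) and Dicer cKO/ScxHt 3.95 (2.84 to 5.61). Its ligand Nrg1 had 40, 70 and 31 counts, and here ScxHt was the high library (ScxHt/Control 1.68, 1.12 to 2.54). Erbb2, the co-receptor, had 252, 285 and 202 counts. Dhh, the hedgehog protein by which Schwann cells organize the perineurium, had 18, 23 and 46 counts (Dicer cKO/Control 2.65, 1.51 to 4.86, and ScxHt/Control 1.22, 0.632 to 2.41). Like Mbp, Dhh was highest in Dicer cKO, but with few counts. Some of its exon sequence is shared with Rhebl1 on the same strand, which had 7, 18 and 19 counts. Adgrg6 (Gpr126), an adhesion receptor that starts myelination and is also made outside nerve, had 546, 571 and 356 counts, and Dicer cKO was the low library (0.677, 0.591 to 0.775).

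Markers of the Schwann lineage split by library. Cdh19, a cadherin of the Schwann lineage, had 86, 83 and 271 counts, so that only Dicer cKO stood apart (Dicer cKO/Control 3.27, 2.56 to 4.22, and ScxHt/Control 0.924, 0.675 to 1.26). S100b, a calcium binding protein of Schwann cells, had 24, 53 and 56 counts, and Ngfr, the low affinity neurotrophin receptor of immature and non-myelinating Schwann cells, had 18, 55 and 49. For these genes both Cre libraries lay above the Control, and they did not differ from each other beyond counting error (Dicer cKO/ScxHt 1.16, 0.785 to 1.73, and 0.982, 0.654 to 1.47). Gap43, L1cam and Gfra3, which non-myelinating Schwann cells and axons carry, had Dicer cKO/Control ratios of 1.49, 1.28 and 1.15 with intervals that held 1. Scn7a, a sodium channel of non-myelinating Schwann cells that is also found in other tissues, had 826, 718 and 1035 counts (1.30, 1.19 to 1.43). Of 11 further genes of immature, non-myelinating or repair Schwann cells, 4 were above the minimum (Ncam1, Chl1, Matn2 and Gfra1), none was higher or lower, and the median log2 ratio was 0.00. Shh had no reads, and Gfap (3, 6 and 2 counts) and Gdnf (0, 12 and 1) had few.

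The nectin-like proteins of axon contact moved in opposite directions. Cadm4, the form that Schwann cells carry, had 35 counts in the Control, 30 in ScxHt and 112 in Dicer cKO (Dicer cKO/Control 3.32, 2.26 to 5.01). Cadm3, its axonal partner, had 408, 447 and 207 counts, and Cadm1 had 335, 355 and 193. The Control and ScxHt counts of these 3 genes agreed within counting error, and Dicer cKO was the high library for Cadm4 and the low one for Cadm3 (0.527, 0.444 to 0.624) and Cadm1 (0.598, 0.499 to 0.716). The Cadm1 value lay at the edge of the threshold and was above 0.60 under each of the 4 other scalings. Cadm3 shares exon sequence with Ackr1 on the same strand (63, 83 and 56 counts). Cadm2 had 216, 225 and 281 counts (1.35, 1.13 to 1.62). Nfasc, neurofascin, which glia use at the paranode and axons at the node, had 229, 410 and 249 counts, with ScxHt as the high library (1.71, 1.46 to 2.02).

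Markers of neurons and axons differed widely in count. The cell bodies of the axons that enter tendon lie in ganglia outside it. Nefl, the light neurofilament, had no reads in any library. Of 17 neuron and axon markers, 4 were above the minimum, and 8 were at 0 counts in the Control, 7 in ScxHt and 5 in Dicer cKO. Uchl1 was higher in Dicer cKO (65, 61 and 125 counts, ratio 2.0, 1.47 to 2.74), and Stmn2 (47, 57 and 54 counts), Map2 (2859, 3180 and 2630) and Ret (489, 404 and 369, ratio 0.784, 0.683 to 0.899) lay between the thresholds. Of 18 genes of node, paranode and axon contact, 12 were above the minimum and 1 was higher, Nrcam (38, 78 and 72 counts, 1.97). Lama2 and Epb41l2, the most read of that list, had ratios of 1.46 and 0.945, and the list median was 0.05 on the log2 scale. Of 9 genes mutated in demyelinating neuropathies, 7 were above the minimum and none was higher or lower (median log2 ratio 0.06). Sh3tc2, which Schwann cells express, was below the minimum with 32, 34 and 61 counts (1.98, 1.27 to 3.14).

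**Figure D3:**
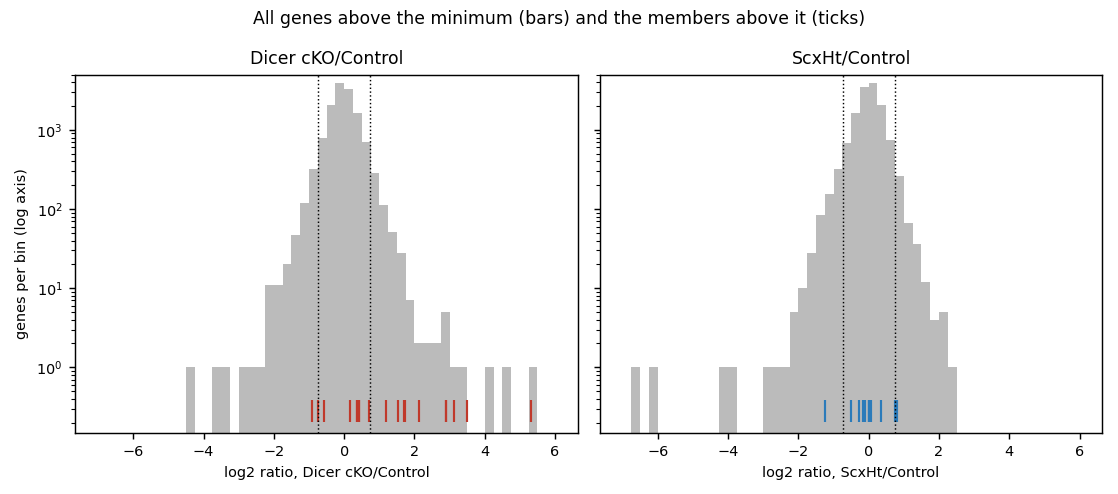
Numbers of genes per bin of log2 ratio (vertical log axis) for all genes above the minimum baseMean, in Dicer cKO/Control (left, 13404 genes) and ScxHt/Control (right, 13462 genes), with the genes of the group as ticks and the thresholds as dotted lines. On the left 10 ticks lie past the upper threshold, among them the farthest bin, and on the right 3 ticks lie just past it.

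RNA of other cell types also differed between the libraries. Of 10 tendon fibroblast markers, 7 were lower and none higher in Dicer cKO than in the Control (median log2 ratio -0.88). The list summed to 2209783 counts in the Control, 1885953 in ScxHt and 1169509 in Dicer cKO. Col1a1 (1261322, 925996 and 658168 counts) and Col1a2 (708695, 658387 and 391822) carried that sum, so it does not stand for each marker. In ScxHt/Control none of the 10 was higher or lower (median 0.25), with 7 intervals above 1 and 3 below 1. Of 12 skeletal muscle markers, 8 were higher and none lower in Dicer cKO (median 0.91), among them Myh2 (36924, 16146 and 69442 counts, ratio 1.95). Dicer cKO/Control ratios of the 12 ran from 1.32 (Myh1) to 6.37 (Myh4, with 8125, 39836 and 49811 counts). Ttn, the most read of them, had 688745, 329060 and 1062032 counts, and its ratio of 1.60 was under the threshold. Their summed counts were 912221 in the Control, 501067 in ScxHt and 1459196 in Dicer cKO, and none of the 12 was at 0 in any library. In ScxHt/Control, 3 of the 12 were higher (Myh4, Pvalb and Actn3) and 5 lower, so the sum, carried by Ttn, does not stand for each marker. The part of muscle, and of the nerve within it, in the myelin values was not tested. The neuromuscular junction genes Musk (380, 351 and 416 counts) and Chrnb1 (311, 200 and 367) had Dicer cKO/Control ratios of 1.14 and 1.23, and none of the 3 of 8 such genes above the minimum was higher.

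Markers of other cell types near nerve or with genes in common with Schwann cells were uneven. Of 8 oligodendrocyte markers, Mog, Olig1 and Opalin had no reads in any library, and the list summed to 8, 29 and 45 counts, mostly of Cldn11 (3, 21 and 26), which other tissues also make. Of 8 melanocyte markers, Mlana, Oca2 and Slc45a2 had no reads, and the 517, 597 and 463 counts of the list were mostly of Mitf, which had a Dicer cKO/Control ratio of 0.907. The keratinocyte markers Krt5, Dsg3 and Lor had no reads, and the 101, 139 and 181 counts of that list were mostly of Trp63 (100, 127 and 178 counts, ratio 1.85). Of 9 perineurial and endoneurial markers, 5 were above the minimum and 1 was higher, Cldn1, the claudin of the perineurium (24, 42 and 82 counts, 3.55, 2.23 to 5.85), while Wif1 (1679, 2710 and 1437) had a ratio of 0.889. Lypd2 had no reads and Msln 0, 0 and 4.

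Lists of other tissue cells gave other patterns. Of 8 endothelial markers, none was higher or lower in Dicer cKO (median log2 ratio 0.04), and their median was -0.61 in ScxHt/Control. Of 8 macrophage markers, 7 were above the minimum in Dicer cKO/Control and none was called (median -0.41), whereas 6 of 8 were higher in ScxHt (median 0.77). The adipocyte markers had a median of 0.01 in Dicer cKO/Control, with 1 of 7 lower (Lep). The mitosis markers above the minimum were higher in both Cre libraries, 3 of 3 in Dicer cKO and 7 of 7 in ScxHt, with Mki67 at 1520, 2776 and 2756 counts. The part of these cells in the myelin values was not tested.

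**Figure D4:**
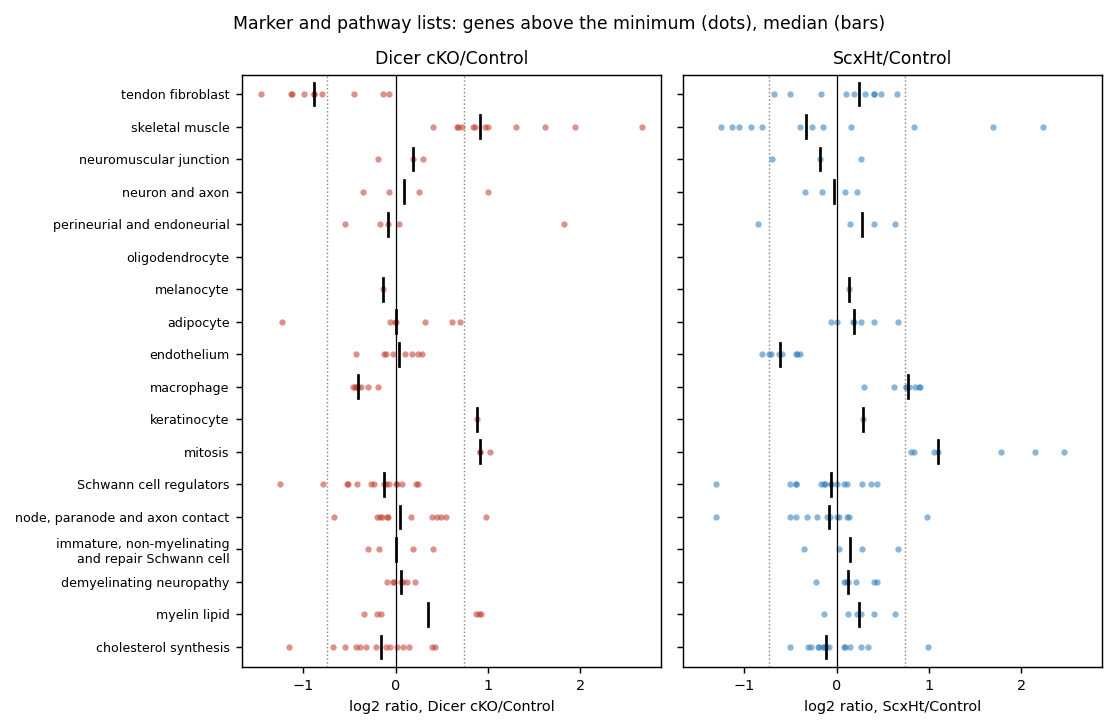
Log2 ratios of the genes above the minimum baseMean (dots) and their medians (bars) for 12 marker lists and 6 pathway lists, in Dicer cKO/Control (left) and ScxHt/Control (right), with dotted lines at the thresholds. On the left, the medians of skeletal muscle, mitosis (3 genes) and keratinocyte (1 gene, Trp63) lists lie past the upper threshold. That of tendon fibroblast genes lies past the lower one. The medians of the 6 pathway lists (the last 6 rows) lie between -0.16 and 0.35 there. The oligodendrocyte list had no gene above the minimum.

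The small RNA libraries came from the same tendons, so they are no independent check of the RNA-seq values. The rule for the genes had not used them, but the miRNAs were chosen with earlier results of these data known. Their values are therefore descriptions too. The small RNA libraries held between 8435829 and 10986541 counts, assigned to miRNA loci and not to the arms of the hairpin. Mir338 lies in an intron of Aatk on the minus strand (chr11:120014765-120014862 on GRCm38.p6, and Aatk at chr11:120007313-120047167) and its product rises as myelinating glia mature. It had 354 counts in the Control, 335 in ScxHt and 892 in Dicer cKO, so that the Control and ScxHt were within counting error of each other and Dicer cKO stood apart. The ratio was 2.89 (2.55 to 3.28) to the Control, 2.66 (2.35 to 3.03) to ScxHt and 1.07 (0.915 to 1.24) for ScxHt/Control. Of all 334 small RNA features above a baseMean of 15, 8.38% were higher and 4.19% lower in Dicer cKO/Control, and of 322 in Dicer cKO/ScxHt 11.2% were higher and 2.17% lower. Aatk itself had 203, 186 and 236 counts in RNA-seq (1.21, 0.996 to 1.46), and so the host transcript did not pass the threshold.

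Mir182 and Mir183, neighbours on chromosome 6 that belong to 1 cluster found in sensory neurons and other sensory cells, had 78, 60 and 168 counts and 60, 44 and 136 counts. Dicer cKO was the high library for both, with ratios of 2.47 (1.88 to 3.27) and 2.60 (1.90 to 3.58) to the Control. The third of the cluster, Mir96, had 5, 1 and 0 counts. The loci of miR-138, a miRNA of Schwann cells, had ratios of 1.63 (1.0 to 2.66) for Mir138-1 and 1.77 (1.01 to 3.18) for Mir138-2, with few counts and a shared mature sequence, and therefore are not independent. Of the loci of miR-219, a miRNA of oligodendrocytes and neurons, none was higher in Dicer cKO/Control and Mir219a-2 was lower. Mir219a-1 had 56, 29 and 36 counts (0.737, 0.471 to 1.14) and Mir219a-2 had 52, 37 and 21 (0.463, 0.265 to 0.782). The 3 loci of miR-9, a neural miRNA, were each listed with the same 95, 77 and 98 counts (1.18, 0.882 to 1.58), and the loci of miR-124 and Mir219b had no reads.

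The mature sequences of the loci that separated Dicer cKO from the other libraries, and of miR-219a-5p as a glial miRNA that was not higher, are shown from RefSeq with the seed (bases 2 to 8) in capitals.
miR-338-3p: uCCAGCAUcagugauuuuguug
miR-338-5p: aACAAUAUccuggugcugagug
miR-182-5p: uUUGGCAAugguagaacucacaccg
miR-183-5p: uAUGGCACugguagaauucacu
miR-138-5p: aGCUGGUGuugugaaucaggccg
miR-219a-5p: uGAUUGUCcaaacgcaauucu
No seed is shared among these 6. miR-138-5p is the same at both of its loci, and miR-219a-5p likewise.

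**Figure D5:**
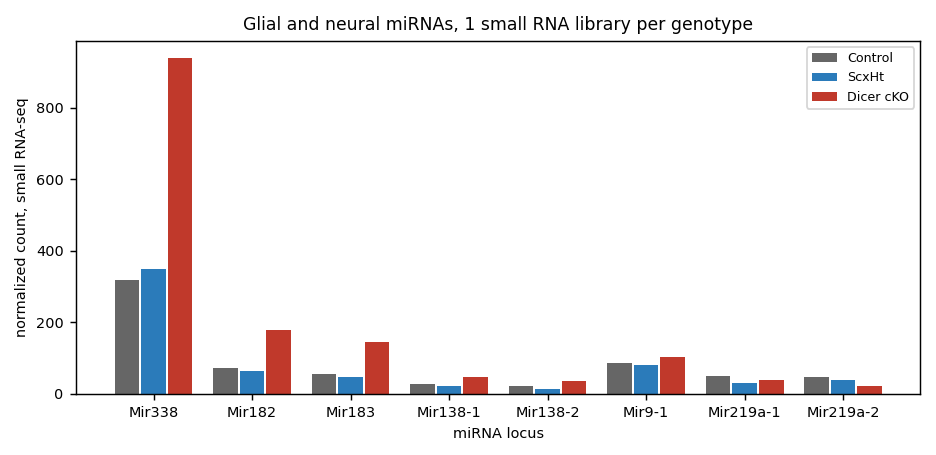
Normalized small RNA counts (vertical axis from 0) of 8 miRNA loci in the Control, ScxHt and Dicer cKO library, with 1 bar per library and no error bars. The Dicer cKO bar is the tallest for Mir338 (940 normalized counts, against 319 and 348), Mir182, Mir183, both miR-138 loci and Mir9-1, and the shortest for Mir219a-2.

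The genes lie on 15 chromosomes with at most 4 on any of them. In GENCODE vM21 on GRCm38, Mbp is at chr18:82475146-82585637 on the plus strand, Mal at chr2:127633226-127656695 on the minus strand and Ugt8a at chr3:125865271-125938619 on the minus strand. Cldn19 is at chr4:119255414-119262438 on the plus strand and Gjc3 at chr5:137953461-137963098 on the minus strand. Exons of 5 genes overlap those of another gene on the same strand, and exons of 10 overlap a gene on the other strand. The strand setting of the counting is not given in the sources used here. Without it, reads of pairs on opposite strands cannot be told apart. For exon sequence shared on the same strand, strand cannot tell the reads apart at all. Mbp, Mal, Ugt8a, Gjc3, Drp2, Cdh19 and Cadm4 have no such overlap.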

How the data were processed

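Per the study's methods, the authors removed adaptors, aligned the trimmed reads to the GRCm38 mouse assembly (TopHat, Bowtie2), and HTSeq counted reads per gene. Versions, annotation release and strand setting are not given in the sources used here. They deposited raw read counts per gene and per small RNA, used for every ratio, and RPKM values per library, used only to compare levels between genes. Of 54189 RNA-seq lines, 463 with the name and counts of an earlier line were dropped, as were 3 of 2265 small RNA lines. Size factors were estimated on the 2 libraries compared with DESeq2 1.42.0 in R 4.3.3, without dispersion model or pseudocount. Intervals were computed with scipy 1.17.1 in Python 3.11.15. Genes needed a baseMean above 50 (small RNA 15). A count of 3 was the floor. On simulated Dicer cKO/Control counts of 13379 genes, of which 200 changed 3-fold, the thresholds called all 200 and 11 of the 13179 others. The simulation drew Poisson counts without differences between mice and changed only genes well above the minimum. It therefore gives no error rate for differences between mice or for the scarcer genes. All 37 genes and Dicer1 are named, and of the other lists up to 3 genes with the highest counts; others in those lists were named after their values were seen. The genes and lists were chosen with earlier results of these data known. No p-value was computed, since each genotype had 1 library.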

Additional observations from a re-analysis of the deposited data

How the results depend on the processing

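With 1 library per genotype no replicate could be left out, and neither edgeR's nor DESeq2's test was run. No paired analysis was possible because each genotype had 1 library and no result came from a test. Libraries were scaled instead by total counts, by totals that left out features above 1% of a library, by the TMM method of edgeR 4.0.16 or by size factors of all 3 libraries together. The other alternatives were a minimum baseMean of 10, 200 or none, ratios above 2 or below 0.5, the whole interval past the threshold, a pseudocount of 1, and ratios of the deposited RPKM values. Of 648 recomputed ratios of single genes and miRNAs, 645 stayed within the counting interval of the reported value, 3 moved outside it with total counts (Mir338 in Dicer cKO/Control, and Pmp22 in ScxHt/Control and Dicer cKO/ScxHt), and none of the called ratios changed direction. Of 972 recomputed counts of list genes called higher or lower, 830 stayed within 1.5 times the reported count and 142 did not. Total counts shifted the median log2 ratio of all genes in ScxHt/Control by 0.105 (to 0.123). Genes called higher in Dicer cKO/Control numbered 20 with a minimum of 10, 21 with none and 4 with 200, and genes called lower 1 under each other scaling and 0 with the stricter threshold or the whole interval. In ScxHt/Control, 7, 11 and 1 were higher and 2, 5 and 0 lower with minima of 10, none and 200, and 0 were higher with the stricter threshold or the whole interval. In Dicer cKO/ScxHt, 18, 20 and 4 were higher with those minima, and genes called lower numbered 1 with TMM scaling or size factors over 3 libraries, 4 with no minimum and 0 with the stricter threshold or the whole interval. Median log2 ratios of roles rest on few genes and moved with the minimum. In Dicer cKO/Control with a minimum of 200 they became 1.66 for adhesion and non-compact myelin (2.12 in the main setting), -0.56 for signalling (0.07) and -0.28 for axon contact (0.18), and the Schwann lineage median became 0.58 with 10 or none (0.38). In ScxHt/Control, compact myelin became -0.15 with 10 or none and 0.34 with 200 (0.10), and adhesion 0.17 with 10 (-0.13). In Dicer cKO/ScxHt, compact myelin became 2.81 with 10 or none (3.08), adhesion 2.0 with 10 or 200 (2.64), and signalling 0.30 with 10 or none (0.72), and it reversed to -0.61 with total counts, where Nrg1 passed the minimum, and to -0.54 with 200, where Adgrg6 alone passed it. What limits these values is 1 mouse per genotype and, for 18 of the 37 genes in Dicer cKO/Control, a mean count at or below 50.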
